A study of Mus musculus with 6 samples.

Results

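Laminins and integrins are 2 families of cell adhesion genes, and their chain genes were followed in RNA-seq counts of PTECs, renal tubular epithelial cells isolated from mouse kidneys. Members were all genes of the count table named as a laminin alpha, beta or gamma chain or as an integrin alpha or beta chain with at least 10 counts summed over the libraries. There were 37 such genes of the 46095 in the table, 11 laminin and 26 integrin chains, and 34 of them had enough counts for a test among 14611 tested genes. Each library came from 1 mouse of 10 weeks of age on a C57 background. VHL-KO mice carried Ksp-Cre with VHL fl/fl, and VHL-KO;SETD2-KO mice carried Ksp-Cre with both VHL fl/fl and Setd2 fl/fl, so that VHL was targeted in every mouse and no sample with intact VHL was compared. Ksp-Cre is a transgene driven by the Ksp-cadherin (Cdh16) promoter, which is active in tubular epithelium, above all in the thick limb, distal tubule and collecting duct, and less in the proximal tubule. VHL marks the hypoxia-inducible factors for degradation, and SETD2 trimethylates lysine 36 of histone H3. The comparison asked how these adhesion genes differed when Setd2 was targeted in addition to VHL. Libraries are named by their labels, VHL-KO replicates 1, 2 and 4 and VHL-KO;SETD2-KO (the double label) replicates 2, 3 and 4, and 3 values in a row follow that order.

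A laminin is a secreted trimer of an alpha, a beta and a gamma chain that polymerises into the sheet on which an epithelium stands, the basement membrane. An integrin is a membrane receptor made of an alpha and a beta chain that ties such matrix proteins to the actin or keratin cytoskeleton. In the kidney, the laminin chains change between the tubular and the glomerular basement membrane, the integrins α3β1 and α6β1 bind laminin on podocytes and tubular cells, and the integrins αvβ6 and αvβ8 release active TGF-β from its latent complex.

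Totals ran from 11168552 to 17883466 counts per library, and 3 counts, taken as the smallest detectable signal, came to between 0.159 and 0.280 CPM (counts scaled to the normalised library size), a floor that covers counting error only. The library labelled VHL-KO replicate 4 stood apart, with a Spearman correlation across genes of 0.717 to 0.765 with the other libraries, against 0.937 to 0.987 among those, and a mitochondrial share of 11.3% of its counts against 25.9% to 36.4% in the others. The reason was not tested, and the calls are given with and without it. Setd2 was at 71.3, 73.8 and 12.3 CPM under the VHL-KO label and at 79.5, 57.3 and 89.5 CPM under the double label. Its log2 fold change, double label over VHL-KO, was 0.52 (edgeR, adjusted p = 0.787) and 0.06 (adjusted p = 0.905) without VHL-KO replicate 4. Its fitted level was thus not lower under the double label. These counts sum over the gene and do not separate the floxed part, so they cannot show whether Setd2 was lost. The paper reports that the targeted gene and the histone mark it makes were reduced in renal tubules, by blotting, staining and RT-qPCR. Markers of the proximal tubule, the first segment after the glomerulus, were the most abundant tubular markers in every library, and those of glomerular podocytes and of endothelium were present throughout, at summed levels of 1530 to 5160 CPM and 1260 to 4590 CPM.

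Measured per kilobase of transcript, the scale on which genes can be compared, Itgb1 was the most abundant member on average over the 6 libraries, at 107 CPM per kb. Itgb1 encodes the β1 chain, the partner of most integrin alpha chains. It was followed by Itgb5 at 56.3, Itga3 at 33.2, Itga6 at 28.5, Lamb2 at 27.7, Lamb1 at 20.5, Lama5 at 15.7 and Itgav at 15.4 CPM per kb. This order depended on the library labelled VHL-KO replicate 4, where Itgb5 at 115 and Itga3 at 46.9 exceeded Itgb1 at 20.7 CPM per kb. In VHL-KO replicates 1 and 2 the means were 98.5 for Itgb1, 30.0 for Itgb5, 27.8 for Itga6, 20.2 for Lamb1 and 19.6 CPM per kb for Itga3. Under the double label they were 142 ± 50.2 for Itgb1, 54.3 ± 6.13 for Itgb5, 37.8 ± 11.5 for Itga3 and 37.0 ± 0.422 CPM per kb for Itga6 (SD, n = 3), the last 2 within their spread. The most abundant laminin chains thus were an alpha 5, both a beta 1 and a beta 2, and, with Lamc1 at 10.9 CPM per kb, a gamma 1 chain. At the other end, Itgad, Itgae and Itga11 summed to 12, 13 and 18 counts over the libraries and were not tested. No gene that matched by name fell under the minimum of 10 counts.

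With the 6 libraries, 2 of the 34 tested members (Itgb3 and Lama4, 5.88%) were higher under the double label at an unadjusted p under 0.05 and a fold of at least 1.5, where 2.66% of all tested genes were. None was lower (0 of 34), where 4.68% of all tested genes were, and 0 members passed in either direction after Benjamini-Hochberg adjustment over all genes, where 0.00684% did (edgeR, lowest adjusted p of a member 0.625). DESeq2 called the same 2 members as higher, against 2.86% of all genes, and Lamb3 as lower, against 7.75%. Left without VHL-KO replicate 4, the fit placed 8 members (23.5%) as higher, among them Itga3, Itgb3, Itgb4, Itgb5, Lama4, Lamb2 and Lamc3, where 8.41% of all genes were. In that fit 3 members (8.82%), Itgb6, Itgb8 and Lama3, were lower, where 7.08% of all genes were, and the lowest adjusted p of a member was 0.0889. The median difference between the labels, on the log2 scale, was 0.35 over the tested members and 0.01 over all tested genes, or 0.39 and 0.03 without that library.

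Levels of 3 members (8.82%), Itga6, Itgb3 and Lamb1, were higher in every double-label library than in every VHL-KO library, where 9.62% of all tested genes were. Lama1 alone (2.94%) was lower in every double-label library, where 11% of all tested genes were. Among 5 libraries, without VHL-KO replicate 4, 9 members did not overlap upwards (26.5%) and 4 downwards (11.8%), where 20.4% and 21.5% of all tested genes did. The shares among the 6 libraries thus were no higher than the background. VHL-KO replicate 4 was the lowest of the 6 libraries in 13 members and the highest in 11, and over all tested genes the shares were 41.7% and 40.0%.

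**Figure D1:**
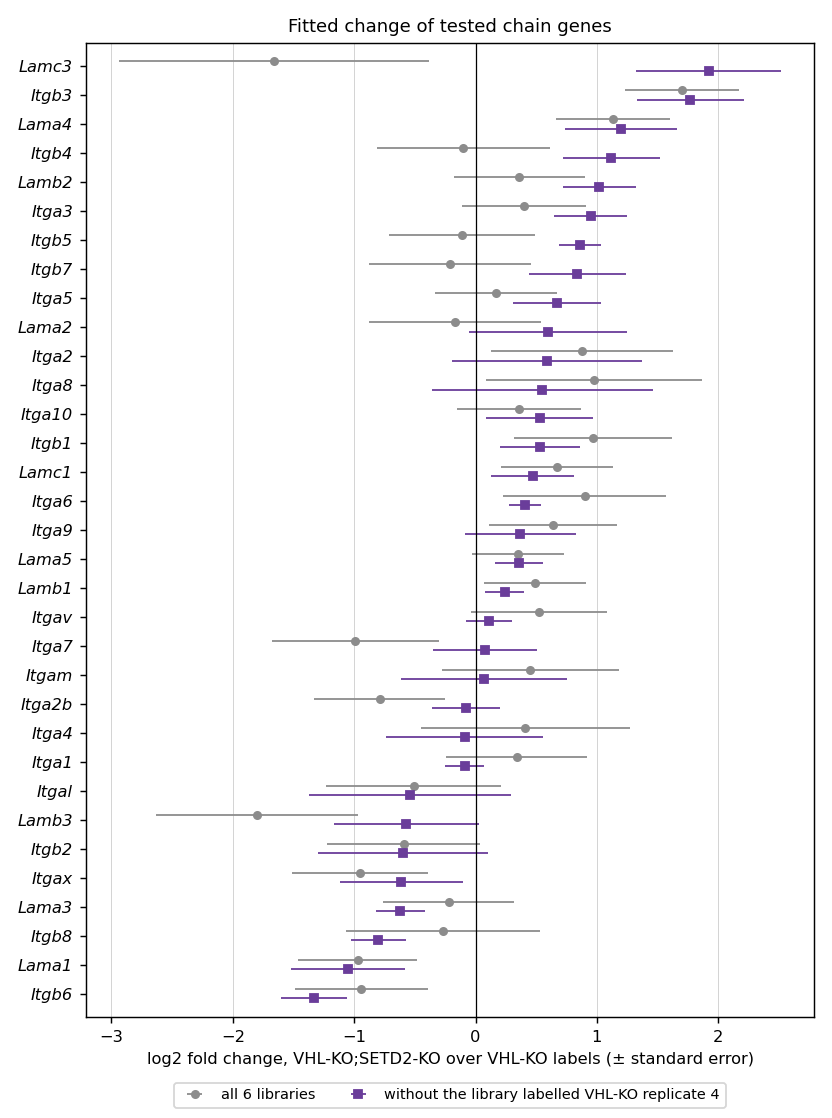
Log2 fold change of the tested chain genes described here, double label over VHL-KO, with its standard error, from edgeR with all 6 libraries (grey circles) and without the library labelled VHL-KO replicate 4 (purple squares). Itgb3 and Lama4 lie to the right of 0 in both fits, at 1.70 and 1.13 with all libraries, whereas Lamc3 moves from -1.66 to 1.92.

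RefSeq promoter windows, from 250 bases before to 50 after a transcript start on GRCm38.p6, were at hand for 23 of the 37 members, in 26 windows. Windows of Itgb6 and Itgb8, lower without VHL-KO replicate 4, and of Lamb2 and Itgb5, higher in the same fit, are shown because both pairs were read for the core letters of Smad and of hypoxia-inducible factor binding. Capitals mark CAGAC or its reverse complement GTCTG, the Smad-binding core, and each run is written 5′ to 3′ on the strand of its gene.
Itgb6 (chr2:60722554-60722853, minus strand): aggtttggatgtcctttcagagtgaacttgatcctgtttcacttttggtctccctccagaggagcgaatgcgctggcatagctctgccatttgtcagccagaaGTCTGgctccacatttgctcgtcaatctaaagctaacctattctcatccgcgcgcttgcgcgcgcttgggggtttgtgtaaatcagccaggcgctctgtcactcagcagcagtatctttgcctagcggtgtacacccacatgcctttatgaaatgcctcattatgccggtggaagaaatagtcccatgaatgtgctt
Itgb8 (chr12:119238227-119238526, minus strand): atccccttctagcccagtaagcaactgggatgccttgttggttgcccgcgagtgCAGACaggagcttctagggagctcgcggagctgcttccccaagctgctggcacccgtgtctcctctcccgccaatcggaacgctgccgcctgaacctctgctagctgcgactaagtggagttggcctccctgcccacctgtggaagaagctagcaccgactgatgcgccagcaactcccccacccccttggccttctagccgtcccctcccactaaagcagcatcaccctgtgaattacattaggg
Lamb2 (chr9:108479612-108479911, plus strand): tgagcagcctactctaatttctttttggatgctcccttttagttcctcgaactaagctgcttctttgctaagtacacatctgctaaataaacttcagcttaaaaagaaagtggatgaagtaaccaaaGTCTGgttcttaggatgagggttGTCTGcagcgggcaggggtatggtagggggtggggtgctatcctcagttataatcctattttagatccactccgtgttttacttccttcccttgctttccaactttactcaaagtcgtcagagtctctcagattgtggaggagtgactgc
Itgb5 (chr16:33829415-33829714, plus strand): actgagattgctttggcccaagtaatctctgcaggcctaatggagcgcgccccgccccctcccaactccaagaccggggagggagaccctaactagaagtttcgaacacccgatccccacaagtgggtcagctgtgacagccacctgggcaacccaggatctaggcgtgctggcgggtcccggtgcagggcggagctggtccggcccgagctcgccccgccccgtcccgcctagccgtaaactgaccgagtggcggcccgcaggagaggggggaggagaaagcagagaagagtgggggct
The windows shown of Itgb6 and Itgb8 held 1 CAGAC each, that of Lamb2 held 2 and that of Itgb5 held 0. A second window of Itgb6, at chr2:60673644-60673943, held 0. None of these windows held ACGTG, the core of the hypoxia response element, on either strand. Of all 32851 RefSeq windows, 49.6% held CAGAC and 19.6% held ACGTG, and of the 26 member windows 18 held CAGAC and 1, in Itga9, held ACGTG. A match is a run of letters and was not tested as a binding site. Promoters of Itgb3, Lama4, Lama1 and Itga6 were not analysed here.

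Among the 5 laminin alpha chains, Lama4 was higher under the double label, Lama1 was lower in each of its libraries without passing the test, and the abundant Lama5 showed no called difference. Lama4 encodes the alpha 4 chain of endothelial and mesangial basement membranes and lies at chr10:38965515-39110188 (plus strand, GRCm38). It was at 11.9, 9.23 and 12.2 CPM under the VHL-KO label and at 31.0, 11.5 and 30.6 CPM under the double label. Replicates 2 and 4 of the double label stood well above the rest, while replicate 3 lay among the VHL-KO libraries. On the log2 scale the difference between the labels was 1.13 (SE, its standard error, 0.47, unadjusted p = 0.0438, adjusted p = 0.625 from edgeR) and 1.20 (SE 0.46, adjusted p = 0.225) without VHL-KO replicate 4. This call was lost when VHL-KO replicate 1, VHL-KO replicate 2, or replicate 2 or 4 of the double label was left out, at log2 fold changes of 1.18, 1.01, 0.93 and 0.94. With no library left out, it was also lost with DESeq2's size factors (RLE) in edgeR, at 1.08, and with limma-voom, at 1.0. The same held with the replicate number as a block, at 1.53.

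The summed endothelial markers were high in the same libraries as Lama4. Summed over 8 genes such as Pecam1, Kdr and Emcn, they were at 1650, 1980 and 1260 CPM under the VHL-KO label and at 4590, 1540 and 3760 CPM under the double label, with no marker at 0 in any library. Replicate 3 of the double label lay among the VHL-KO libraries in both, and 0 of the 8 markers passed the test upwards, or 1 (Egfl7) without VHL-KO replicate 4. The shares over all tested genes were 2.66% and 8.41%. Plvap, a marker of fenestrated endothelium, went another way, at 15.4, 11.5 and 197 CPM under the VHL-KO label and 35.3, 78.3 and 9.96 CPM under the double label. Summed podocyte markers were high in the same libraries too, at 5160 and 4590 CPM in replicates 2 and 4 of the double label against 2100 CPM in replicate 3. The part of endothelial or podocyte markers in the difference of Lama4 was not tested. In bulk samples, more cells of a type and more RNA of a gene per cell cannot be told apart.

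Lama1, at chr17:67697259-67822647 (plus strand), encodes the alpha 1 chain, the major alpha chain of embryonic basement membranes, which in the adult kidney remains in the tubular basement membrane. It was at 31.9, 24.0 and 23.8 CPM under the VHL-KO label and at 11.6, 6.86 and 22.2 CPM under the double label. All 3 double-label libraries lay below all 3 VHL-KO libraries, but replicate 4 of the double label came within 2 CPM of them. Its fitted log2 fold change was -0.97 (SE 0.49, unadjusted p = 0.0836, adjusted p = 0.625) and -1.05 (adjusted p = 0.27) without VHL-KO replicate 4, and among the settings run it passed the unadjusted threshold only when replicate 4 of the double label was left out, at -1.52.

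Lama5, the most abundant alpha chain and the alpha chain of mature glomerular and tubular basement membranes, was at 135, 176 and 160 CPM under the VHL-KO label. Under the double label it was at 212, 167 and 220 CPM, and replicate 3 lay among the VHL-KO libraries. The fitted log2 fold change was 0.35 (SE 0.38, adjusted p = 0.766) and 0.36 (SE 0.20, adjusted p = 0.36) without VHL-KO replicate 4. Lama3 encodes the alpha chain of the anchoring laminin of hemidesmosomes, the junctions that tie keratin filaments to the basement membrane. Its level was 68.9, 69.3 and 19.0 CPM under the VHL-KO label and 39.0, 39.0 and 56.7 CPM under the double label, with the low value in VHL-KO replicate 4. The log2 fold change of Lama3 was -0.22 (adjusted p = 0.888) with that library and -0.62 (SE 0.20, unadjusted p = 0.0206, adjusted p = 0.178) without it. Lama2, the alpha chain of muscle and stromal basement membranes, ranged from 2.06 to 9.71 CPM and was highest in VHL-KO replicate 4.

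**Figure D2:**
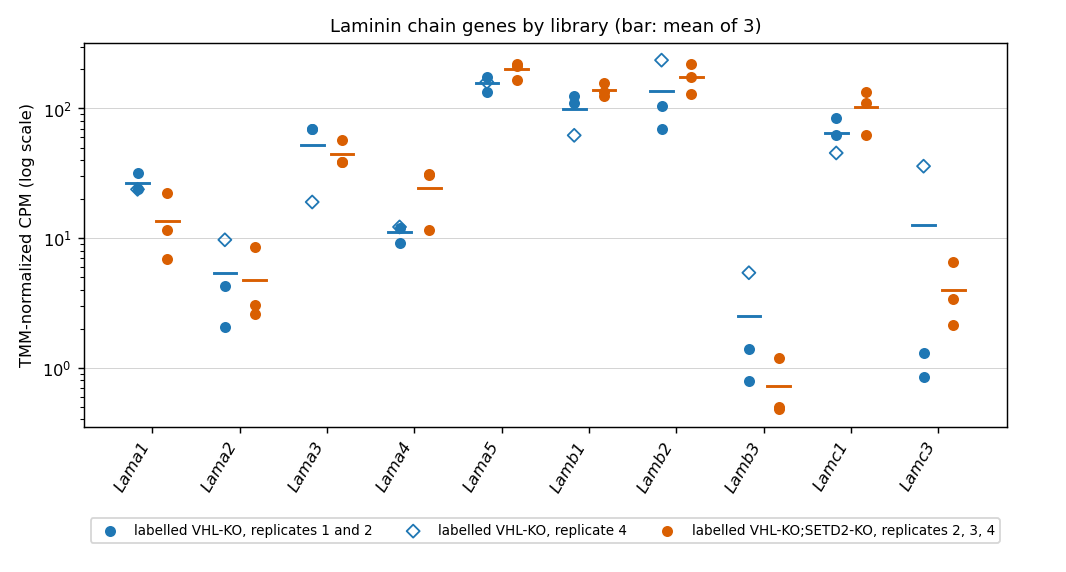
Normalised CPM (log scale) of the laminin chain genes described here in each library, blue for the VHL-KO label with replicate 4 as open diamonds, orange for the double label, bars for the mean of 3. The libraries of Lama1 and Lamb1 separate by label, and Lamc3 reaches 35.9 CPM in VHL-KO replicate 4 against at most 6.52 CPM elsewhere.

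Of the 3 beta and 3 gamma chains, none passed the edgeR test with all 6 libraries, and DESeq2 called Lamb3 lower. Lamb1 encodes the beta 1 chain of tubular and mesangial basement membranes and lies at chr12:31265234-31329644 (plus strand). It was at 124, 110 and 62.1 CPM under the VHL-KO label and at 157, 125 and 133 CPM under the double label. Every double-label library was above every VHL-KO library, by 1 CPM between the nearest libraries as rounded here. The estimated log2 fold change was 0.49 (SE 0.42, adjusted p = 0.708) and 0.24 (SE 0.16, adjusted p = 0.435) without VHL-KO replicate 4.

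Lamb2 encodes the beta 2 chain, which replaces beta 1 in the mature glomerular basement membrane, and lies at chr9:108479736-108490530 (plus strand), with its promoter window among those printed above. It was at 69.0, 105 and 236 CPM under the VHL-KO label and at 222, 129 and 176 CPM under the double label, so that VHL-KO replicate 4 was the highest of the libraries and the other 2 were the lowest. On the log2 scale the difference between the labels was 0.36 (SE 0.54, adjusted p = 0.819) with it and 1.02 (SE 0.30, unadjusted p = 0.0145, adjusted p = 0.159) without it. Podocyte markers were also high in replicates 2 and 4 of the double label, with a sum over 8 genes of 1530, 2080 and 2260 CPM under the VHL-KO label and 5160, 2100 and 4590 CPM under the double label. Of these markers 4, among them Nphs1, Wt1 and Ptpro, passed the test upwards with all libraries and 5 without VHL-KO replicate 4. Over all tested genes 2.66% and 8.41% did, and no podocyte marker was at 0. The part of podocyte RNA in the level of Lamb2 was not tested.

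Lamc1, the gamma 1 chain shared by most laminins, was at 62.7, 84.8 and 45.4 CPM under the VHL-KO label and at 133, 62.5 and 111 CPM under the double label. As for Lama4, replicates 2 and 4 of the double label were highest and replicate 3 lay among the VHL-KO libraries, and the log2 fold change was 0.67 (SE 0.46, adjusted p = 0.65) and 0.47 (SE 0.34, adjusted p = 0.466) without VHL-KO replicate 4.

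Lamc3, a gamma chain also found outside basement membranes, differed more than any other tested member between the fits with and without VHL-KO replicate 4. It was at 0.847, 1.29 and 35.9 CPM under the VHL-KO label and at 2.12, 6.52 and 3.38 CPM under the double label. Between the fits its log2 fold change went from -1.66 (SE 1.28, adjusted p = 0.68) to 1.92 (SE 0.60, unadjusted p = 0.0192, adjusted p = 0.173). The sum over 8 collecting duct markers was also highest in VHL-KO replicate 4. It was 578 CPM there, against 51.7 and 75.9 CPM in the other VHL-KO libraries and 83.2, 298 and 88.2 CPM under the double label. Aqp2 alone was at 257 CPM in VHL-KO replicate 4, and the markers were split. Scnn1g (15.8 against 44.0 CPM) and Foxi1 (5.41 against 14.3 CPM) were lower there than in replicate 3 of the double label. Atp6v1g3, at 2.71 CPM, was the lowest of the libraries. Lamc3 and this sum shared the order of the libraries at the top, with VHL-KO replicate 4 and replicate 3 of the double label above the rest, and their relation was not tested. Lamb3, called lower by DESeq2, was at 5.41 CPM in VHL-KO replicate 4 and between 0.477 and 1.39 CPM elsewhere. It was not called by edgeR without that library.

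The laminin-binding integrin chains are Itga3, Itga6 and Itga7 on the alpha side and Itgb4 on the beta side. None passed the test with all 6 libraries. Itga6 (chr2:71745616-71858416, plus strand) encodes the α6 chain, which pairs with β1 on many cells and with β4 in hemidesmosomes. It was at 118, 122 and 16.9 CPM under the VHL-KO label and at 162, 158 and 159 CPM under the double label. Double-label libraries lay within 4 CPM of each other and above all VHL-KO libraries, with an SD of 1.82 CPM against 59.6 CPM under the VHL-KO label. The fitted log2 fold change was 0.90 (SE 0.67, adjusted p = 0.675), and without VHL-KO replicate 4 it was 0.41 (SE 0.13, unadjusted p = 0.0201, adjusted p = 0.177), a fold of 1.33 and so under the threshold of 1.5.

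Itga3 (chr11:95044474-95076801, minus strand) encodes the α3 chain of the main laminin receptor of podocytes. It was at 83.4, 107 and 228 CPM under the VHL-KO label and at 231, 122 and 198 CPM under the double label. VHL-KO replicate 4 and replicates 2 and 4 of the double label were high, the same libraries as for Lamb2. The estimated log2 fold change was 0.40 (SE 0.51, adjusted p = 0.797) with all libraries and 0.95 (SE 0.30, unadjusted p = 0.021, adjusted p = 0.179) without VHL-KO replicate 4. Itgb4, the hemidesmosomal β4 chain, was at 2.18, 3.69 and 14.6 CPM under the VHL-KO label and at 5.46, 8.6 and 4.88 CPM under the double label. Its log2 fold change turned from -0.10 (adjusted p = 0.964) to 1.12 (SE 0.40, unadjusted p = 0.0311, adjusted p = 0.204) without that library. Itga7, best known in muscle, was at 31.5 CPM in VHL-KO replicate 4 and between 5.32 and 11.9 CPM elsewhere.

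Itgb1 (chr8:128685654-128733200, plus strand) was at 362, 389 and 78.9 CPM under the VHL-KO label and at 729, 347 and 553 CPM under the double label. The groups overlapped, since replicate 3 of the double label lay below VHL-KO replicates 1 and 2. On the log2 scale the difference between the labels was 0.97 (SE 0.65, adjusted p = 0.644) and 0.53 (SE 0.33, adjusted p = 0.402) without VHL-KO replicate 4. Of the collagen-binding alpha chains, the most abundant was Itga1, a receptor for basement membrane collagen, at 47.4, 50.8 and 10.6 CPM under the VHL-KO label and 45.7, 52.8 and 39.5 CPM under the double label. Outside VHL-KO replicate 4 its libraries of both labels shared a range of 39.5 to 52.8 CPM, and its log2 fold change was 0.34 (adjusted p = 0.836) with that library and -0.09 (SE 0.16, adjusted p = 0.776) without it. Itga2 and Itga10, the other tested collagen receptors, stayed at or below 5.01 CPM.

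**Figure D3:**
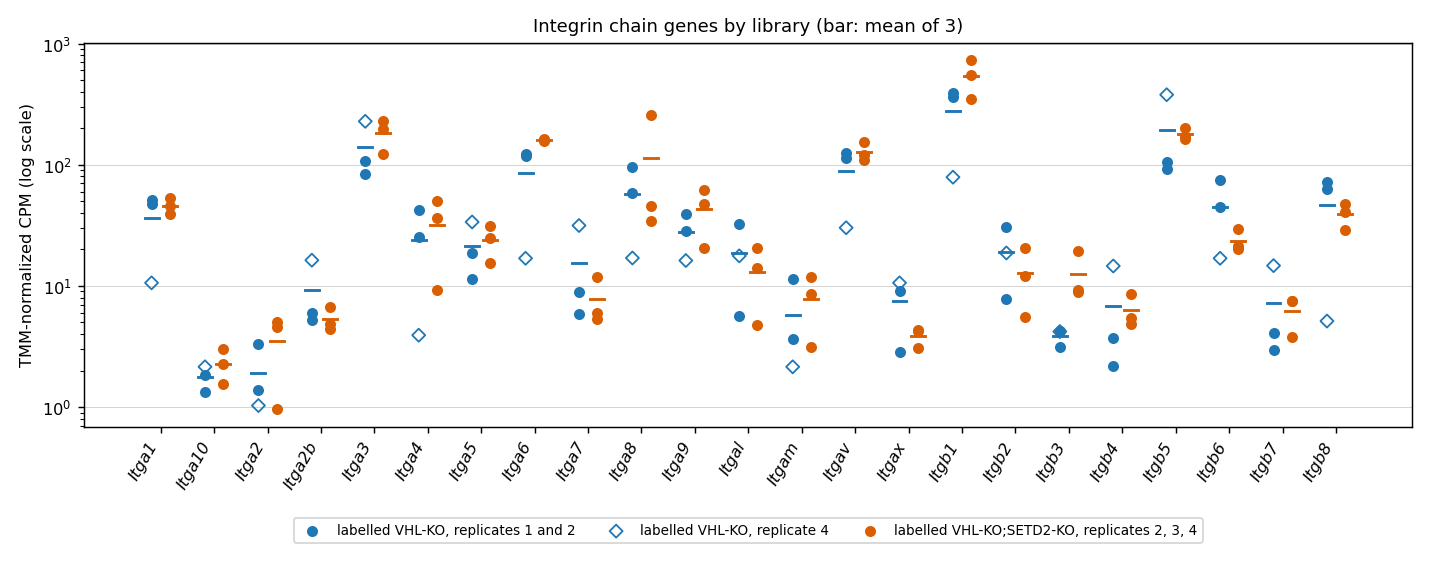
Normalised CPM (log scale) of the 23 tested integrin chain genes in each library, coloured as for the laminins, with bars for the mean of 3. Itgb3 and Itga6 separate by label, and the open diamonds of VHL-KO replicate 4 lie at an edge of the range for many chains, as for Itgb8 at 5.13 CPM and Itgb5 at 378 CPM.

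The integrins that bind the RGD motif of fibronectin, vitronectin and osteopontin centre on Itgav and its beta partners, and these held the member with the lowest unadjusted p in the fit of all libraries. Itgb3 (chr11:104608000-104670476, plus strand) encodes the β3 chain, which pairs with αv on endothelium and many other cells and with αIIb on platelets. It was at 3.15, 4.25 and 4.20 CPM under the VHL-KO label and at 8.86, 19.3 and 9.33 CPM under the double label. Every double-label library was above every VHL-KO library, by more than 4 CPM, with 3.87 ± 0.623 CPM (SD, n = 3) against 12.5 ± 5.92 CPM (SD, n = 3). Double-label libraries were higher by a log2 fold change of 1.70, a fold of 3.24 (SE 0.47, unadjusted p = 0.00686, adjusted p = 0.625), and 1.77 (SE 0.44, adjusted p = 0.126) without VHL-KO replicate 4. It stayed between 1.25 and 1.90 and past the unadjusted threshold with each of the 6 libraries left out. With the replicate number as a block it lost the call, at 1.11. VHL-KO replicate 1 and replicate 3 of the double label have no same-numbered partner and do not enter that estimate.

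Megakaryocyte and platelet markers had too few counts to compare with Itgb3. Itga2b, the αIIb chain, was at 5.99, 5.26 and 16.3 CPM under the VHL-KO label and at 6.68, 4.44 and 4.82 CPM under the double label, while Pf4 and Gp1ba had 0 counts in every library and Ppbp and Gp1bb at most 1. Gp9 had 6, 2 and 9 counts under the VHL-KO label and 16, 4 and 6 under the double label and was not tested, so the part of platelets in Itgb3 was not tested. Osteopontin, an integrin ligand encoded by Spp1 and also a product of injured tubular cells, was highest in the library where Itgb3 was highest. It was at 198, 195 and 61.6 CPM under the VHL-KO label and at 231, 1200 and 243 CPM under the double label, a log2 fold change of 1.88 (SE 0.80, unadjusted p = 0.0454, adjusted p = 0.625).

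Itgav, which encodes the αv chain, was at 114, 124 and 30.2 CPM under the VHL-KO label and at 109, 153 and 121 CPM under the double label. Without VHL-KO replicate 4 its groups lay in 1 range, with a log2 fold change of 0.11 (SE 0.19, adjusted p = 0.776), against 0.52 (adjusted p = 0.76) with all libraries. Itgb6 (chr2:60598292-60722643, minus strand) encodes the epithelial β6 chain that activates latent TGF-β. It was at 74.2, 44.5 and 16.9 CPM under the VHL-KO label and at 21.2, 20.3 and 29.3 CPM under the double label. VHL-KO replicate 4 was the lowest library and replicates 1 and 2 were the highest. The fitted log2 fold change was -0.94 (SE 0.55, adjusted p = 0.626) and, without VHL-KO replicate 4, -1.33 (SE 0.27, unadjusted p = 0.0027, adjusted p = 0.0972), or 2.52-fold lower. It shrank to -0.38 without VHL-KO replicate 1. With the replicate number as a block, where VHL-KO replicate 1 and replicate 3 of the double label do not enter the estimate, it shrank to -0.14.

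Itgb8 (chr12:119158022-119238802, minus strand) encodes the β8 chain, the other activator of latent TGF-β. It was at 72.3, 63.3 and 5.13 CPM under the VHL-KO label and at 28.7, 40.6 and 47.5 CPM under the double label. The estimated log2 fold change was -0.27 (SE 0.80, adjusted p = 0.91) and, without VHL-KO replicate 4, -0.80 (SE 0.23, unadjusted p = 0.0121, adjusted p = 0.149). It turned positive when VHL-KO replicate 1 or 2 was left out, at 0.19 and 0.01. Proximal tubule markers were lower under the double label, at a sum over 8 genes of 12000, 8600 and 13300 CPM against 30500, 27900 and 32400 CPM. Kap alone held much of it, at 6750, 1210 and 6950 CPM against 18300, 16200 and 7600 CPM. Of all tested genes 4.68% were called lower, and 7.08% without VHL-KO replicate 4. Of the 8 markers, 3 were past the test with all libraries and 6 without VHL-KO replicate 4. That library was lowest of all in Itgb6 and Itgb8, while its proximal markers split, with Slc34a1 at 14200 CPM, the highest of the libraries, and Lrp2 at 938 CPM, the lowest. The part of tubular cell makeup in their levels was not tested.

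Itgb5 (chr16:33829665-33949338, plus strand), the widely expressed β5 chain and the most abundant per kb of Itgb3, Itgb5, Itgb6 and Itgb8, was at 92.5, 105 and 378 CPM under the VHL-KO label. Under the double label it was at 201, 164 and 170 CPM, above VHL-KO replicates 1 and 2 and below replicate 4. Its log2 fold change turned from -0.11 (SE 0.60, adjusted p = 0.955) to 0.86 (SE 0.17, unadjusted p = 0.00214, adjusted p = 0.0889), or 1.81-fold, without VHL-KO replicate 4. In the 5 remaining libraries Itgb3 and Itgb5 were thus called higher and Itgb6 and Itgb8 lower, while Itgav and Itgb1 had no call. Only VHL-KO replicates 1 and 2 stood on the VHL-KO side of that fit, and with all libraries Itgb3 alone of these was called. Itga5, the fibronectin receptor chain, and Itga8, the nephronectin receptor chain of mesangial and stromal cells, had no call in either fit. Itga8 was at 259 CPM in replicate 2 of the double label and between 17.0 and 96.3 CPM in the others.

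Leukocyte integrin chains are carried by blood-borne cells. None of the 5 tested genes among 7 (Itgal, Itgam, Itgax, Itgb2 and Itgb7) passed in either fit. Itgb2, the shared β2 chain, was at 7.81, 30.8 and 18.7 CPM under the VHL-KO label and at 12, 5.57 and 20.4 CPM under the double label, with a log2 fold change of -0.59 (SE 0.63, adjusted p = 0.76), or -0.60 (SE 0.70, adjusted p = 0.667) without VHL-KO replicate 4. Of the remaining alpha chains, Itga9, a receptor for tenascin and osteopontin, was at 28.4, 39.2 and 16.2 CPM under the VHL-KO label and at 62.4, 20.5 and 47.5 CPM under the double label. Itga4, the leukocyte and mesenchymal receptor chain for VCAM1, ranged from 3.92 to 49.8 CPM. In both genes replicate 3 of the double label was below all libraries but VHL-KO replicate 4, and neither gene passed the test.

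Ratios of 2 chains within a library do not depend on its total, and 6 were compared as log2 of the counts with 1 added. Lama1 to Lama5 was the only ratio whose groups did not overlap. It was -2.08, -2.87 and -2.74 under the VHL-KO label and -4.19, -4.59 and -3.31 under the double label, a difference of -1.47 (two-sided exact permutation test, p = 0.1, adjusted over the 6 ratios 0.6), and of -1.56 without VHL-KO replicate 4 (exact test, p = 0.2). The smallest p that 3 against 3 libraries allow is 0.1, so no ratio could pass the threshold. Lamb1 to Lamb2, the tubular over the glomerular beta chain, was 0.85, 0.07 and -1.93 under the VHL-KO label and -0.49, -0.04 and -0.41 under the double label. The difference was 0.02 with all libraries and -0.77 without VHL-KO replicate 4 (exact permutation test, p = 1 and p = 0.1). Itgb6 to Itgb5 was -0.32, -1.23 and -4.48 under the VHL-KO label and -3.25, -3.01 and -2.53 under the double label, a difference of -0.92 (exact permutation test, p = 0.5) that became -2.15 without that library (p = 0.1, exact test, the smallest the 2 against 3 libraries allow), -0.53 without VHL-KO replicate 2 and -0.08 without VHL-KO replicate 1. Itga3 to Itga6 reached 3.75 in VHL-KO replicate 4 and lay between -0.50 and 0.52 in the others.

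**Figure D4:**
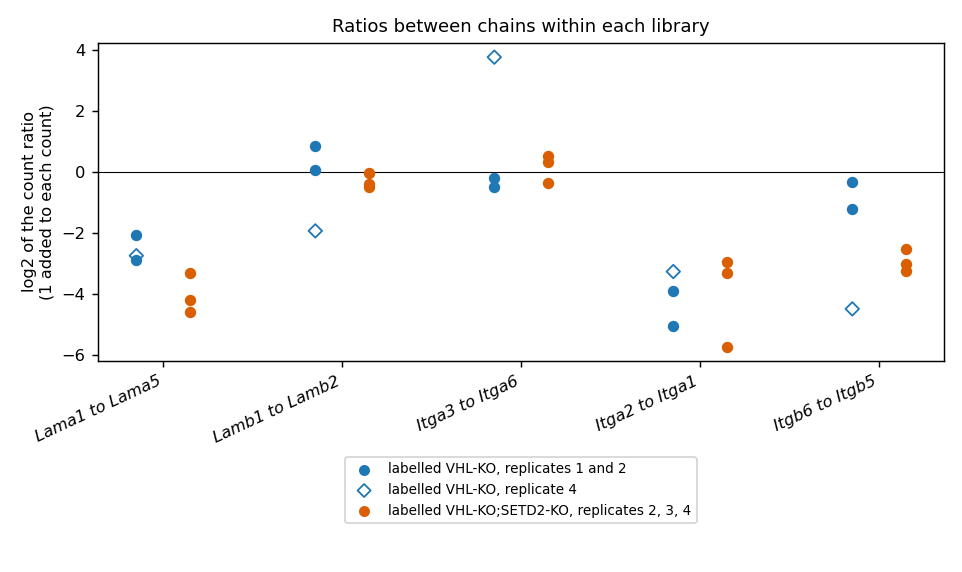
Log2 ratios of the counts of 2 chain genes within each library, with 1 added to each count, coloured as before. Lama1 to Lama5 lies at -2.87 or above under the VHL-KO label and at -3.31 or below under the double label, while the open diamonds of VHL-KO replicate 4 lie away from replicates 1 and 2 in Lamb1 to Lamb2, Itga3 to Itga6 and Itgb6 to Itgb5.

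Genes around these chains were read from 4 lists, against shares over all tested genes of 2.66% higher and 4.68% lower with all libraries and 8.41% and 7.08% without VHL-KO replicate 4. Of 13 basement membrane partners of laminin, 0 passed in either direction with all libraries, and 4 were higher without VHL-KO replicate 4. These were Col4a6, an alpha chain of collagen IV (log2 fold change 1.31), Col18a1, the endostatin precursor (0.92), the laminin-binding netrin Ntn4 (0.77) and Npnt, the nephronectin ligand of α8β1 (0.65). Of 11 other laminin receptors and integrin partners, 0 passed with all libraries, and the laminin receptor Bcam (1.10) and the tetraspanin Cd9 (0.96) were higher without VHL-KO replicate 4. Of 20 adhesion plaque genes, which link integrins to actin, Src, a tyrosine kinase of focal adhesions, was lower with all libraries at -1.28 (SE 0.52, unadjusted p = 0.0372, adjusted p = 0.625). Src was at 21.7, 20.2 and 60.7 CPM under the VHL-KO label and at 13.4, 16.4 and 12.4 CPM under the double label, with no overlap, and at -0.58 it was under the 1.5-fold threshold without VHL-KO replicate 4. In that fit the actinin Actn1 (0.91) and the tensin Tns2 (0.78) were higher.

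The fourth list held 15 genes, integrin ligands other than laminins together with genes of the latent TGF-β complex such as Lrrc32, of which 14 were tested. Spp1, given above, and Thbs1 were higher with all libraries and 0 were lower. Thbs1 encodes thrombospondin 1, a matrix protein that binds integrins and activates TGF-β. It was at 22.7, 39.0 and 22.8 CPM under the VHL-KO label and at 56.9, 81.1 and 75.1 CPM under the double label, every double-label library above every VHL-KO library. On the log2 scale the difference between the labels was 1.34 (SE 0.41, unadjusted p = 0.0117, adjusted p = 0.625) and 1.21 (SE 0.28, adjusted p = 0.111) without VHL-KO replicate 4. In the 5 libraries Fn1, which encodes fibronectin, and Fbn1, Lrrc32 and Tgfb3 were higher as well, at log2 fold changes of 1.11, 0.80, 1.10 and 1.38, whereas Spp1 at 1.5 did not pass. Tgfb3 had only 12 and 7 counts in VHL-KO replicates 1 and 2. Fn1 was at 11.9, 12.4 and 45.3 CPM under the VHL-KO label and at 24.1, 23.2 and 31.2 CPM under the double label.

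Chain genes and markers are set side by side by library in the panel of 4 plots. Marker sums of the thick limb and distal tubule were 1280, 1980 and 4930 CPM under the VHL-KO label and 1590, 4440 and 1900 CPM under the double label. Those of stroma and mesangium were 84.4, 61.8 and 423 CPM against 184, 160 and 56.5 CPM, and those of leukocytes 111, 280 and 634 CPM against 169, 127 and 212 CPM. In VHL-KO replicate 4 the distal and leukocyte lists were split. Umod (2950 CPM) and Slc12a3 (1670 CPM) were the highest of the libraries there, and Slc12a1 (79.1 CPM), Calb1 (42.4 CPM) and Trpm6 (6.44 CPM) the lowest. Likewise Cd74 (456 CPM) was the highest and Ptprc (3.27 CPM) the lowest. Replicate 3 of the double label, highest in Itgb3 and Spp1, was thus high in distal and collecting duct markers and low in podocyte and endothelial markers beside replicates 2 and 4. The labelled tissue held its tubular markers together with those of the glomerulus and vessels.

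**Figure D5:**
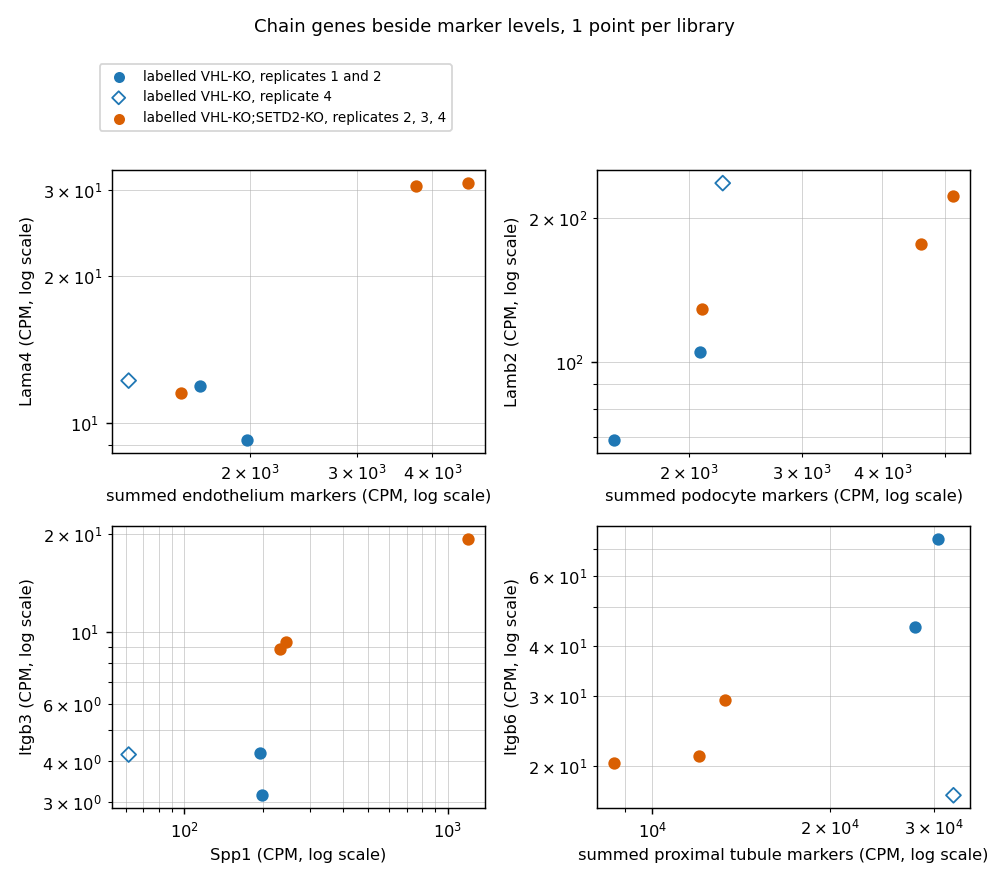
Each point is 1 library, with the level of a chain gene (normalised CPM, log scale) against that of a marker sum or ligand (normalised CPM, log scale), for pairs chosen with the values known. The libraries high in endothelial markers, at 4590 and 3760 CPM, are those with Lama4 at 31.0 and 30.6 CPM, and Itgb3 is highest where Spp1 is at 1200 CPM.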

How the data were processed

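RNA was measured in PTECs of 6 mice, 1 library each, and the genotype label of each library gave its group. The authors made directional paired-end libraries and deposited unnormalised counts per gene symbol. The submitters' processing notes name HISAT2 2.0.4 and GRCm38, and the counting program, annotation and use of strand are not given in the sources used here, so reads of overlapping antisense genes cannot be told apart. The number of sample columns left unused was 0.

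Counts were filtered with filterByExpr, normalised by TMM (factors 0.831 to 1.16) and tested with edgeR 4.0.16 (quasi-likelihood, genotype only, R 4.3.3) over 14611 genes, with Benjamini-Hochberg adjustment. The study's thresholds, an unadjusted p under 0.05 and a fold of at least 1.5, gave the calls. DESeq2 1.42.0 and limma 3.58.1 (voom) were alternatives, with other size factors, filters and library sizes, the replicate number as a block, and each library left out. Standard errors are the log2 fold change over the root of the F statistic. Levels per kb used the longest protein-coding transcript of GENCODE on GRCm38, which also gave gene coordinates. The code was tested on simulated data. P-values measure the spread between these mice. The counts of every pair of libraries differed by more than counting error (smallest chi-square over its degrees of freedom 12.7).

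Members and lists were chosen with earlier results of these data known. Genes were described by library where they passed the test or their groups did not overlap, where they led their role in level per kb, and for the shared chains Itgb1 and Lamc1 and the TGF-β activators Itgav, Itgb6 and Itgb8. Itgb4, Lama3 and Lamc3 were added after their values without VHL-KO replicate 4 were seen, and other chains are named for their levels only. Single values of some genes are not reported here, though the counts and sums include them. Figures plot the same normalised CPM. The counts by role, list and marker without VHL-KO replicate 4 and the crossed pairs were chosen after seeing the data.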

Additional observations from a re-analysis of the deposited data

How the results depend on the processing

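The count of members called higher, 2 with edgeR, was 1 with DESeq2's size factors (RLE) in edgeR and with limma-voom, and ranged from 1 to 8 as each library was left out, with 8 without VHL-KO replicate 4 and 1 without VHL-KO replicate 1 or 2 or replicate 2 or 4 of the double label. The count called lower, 0 with edgeR, was 1 with DESeq2 and with no filter, and ranged from 0 to 3 as each library was left out, at 2 without VHL-KO replicate 1, 3 without VHL-KO replicate 4, and 1 without VHL-KO replicate 2 or replicate 4 of the double label. No member passed after adjustment under any of these settings. Members that did not overlap upwards, 3, were 2 with RLE size factors and with library sizes without mitochondrial genes, and ranged from 3 to 9 as each library was left out, with 9 without VHL-KO replicate 4 or replicate 3 of the double label, and those that did not overlap downwards, 1, from 1 to 4, at 3 without VHL-KO replicate 1, 4 without VHL-KO replicate 4, and 2 without replicate 2 or 3 of the double label, and were 0 with library sizes without mitochondrial genes. Without VHL-KO replicate 4, 8.41% of all tested genes were called higher and 7.08% lower, and 20.4% and 21.5% did not overlap upwards and downwards. Such shares were not computed with any other library left out, so those counts have no background to be read against. The median log2 fold change of tested members ranged from 0.071 (without replicate 2 of the double label) to 0.389.

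Replicate numbers 2 and 4 occur under both labels, and the deviations of same-numbered libraries correlated at 0.164 and -0.333. These 2 pairs, of which 1 holds VHL-KO replicate 4, do not show whether a batch or day was shared. With the replicate number as a block, members higher were 0 and lower 1, Itgb3 lost its call at 1.11 and Lama4 at 1.53, and Itgb8 turned to 1.01 and Lama3 to 0.37. Crossed pairs, chosen after seeing the data, gave 0 higher and 1 lower, with the same turns of Itgb8 (1.01) and Lama3 (0.37). Crossing leaves the same libraries, replicates 2 and 4 of each label, in the estimate. The same values were therefore bound to come out, and the crossed pairs are no second check. Limma-voom turned Itgb5 to 0.20, Itgb8 to 0.41, Itgb4 to 0.36 and Lamc3 to 0.13. With each library left out, log2 fold changes ranged from -0.09 to 0.66 for Itga1, -0.44 to 0.86 for Itgb5, -0.80 to 0.19 for Itgb8, -0.53 to 1.12 for Itgb4, -0.62 to 0.03 for Lama3 and -2.22 to 1.92 for Lamc3. Differences in log2 ratio ranged from -0.77 to 0.62 for Lamb1 to Lamb2, -1.63 to 0.50 for Itga3 to Itga6, -2.15 to -0.08 for Itgb6 to Itgb5 (-0.04 with the block) and -0.45 to 0.93 for Itga2 to Itga1, and adding 5 counts in place of 1 gave -0.04 for the last. Of 279 values of single members under these settings, 245 kept direction and side of the threshold, 10 lost the call, 6 gained it and 18 turned direction. Values that turned and also gained a call are among the 18, as for Itgb4, Itgb5 and Lamc3 without VHL-KO replicate 4. The cause was not tested.

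DESeq2 gave no p for Lamc3, and Lamb3 could not be fitted at 10 counts in every sample. Overlap counts have no value under DESeq2, limma-voom or the block. With 3 libraries a label, depth limits Itgad, Itgae and Itga11, and the calls without VHL-KO replicate 4 rest on 2 VHL-KO libraries.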
